A study of Drosophila melanogaster with 29 samples.

Results

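The genes described here are the ecdysone receptor and 5 genes of its response in adults of Drosophila melanogaster: EcR, usp, Eip75B, br, ftz-f1 and Hr39. They were taken as every probe set whose gene symbol is one of 7 names, the seventh being Eip74EF, which is not analysed here. The array measured 10844 genes under a symbol of their own, and the 6 genes gave 9 of its 13966 probe sets that are not controls, with 2 for EcR, 3 for br and 1 for each of the others. Of these, 8 entered the counts of calls. The probe set of Eip75B was named only through a list that the study had chosen for variation among females on these same arrays, so its levels are described without a test.

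Males and virgin females of 5 long-kept laboratory stocks were compared: France, Antigua, Hikone and 2 separately kept stocks of Oregon-R, called Glasgow and Cambridge. The labels name no transgene and no treatment for any stock. The labels give 25°C for all flies and an age of 0 to 6 hours, except that the label of France female replicate 3 gives 3 to 5 days. RNA was extracted separately from 3 groups of flies per strain and sex and put on 29 arrays, 15 of males and 14 of females, because Hikone females have 2. Each strain is 1 stock, so a difference between strains is a difference between these stocks. Values are log2 expression after the authors' GC-based background adjustment and quantile normalization, and levels of different probe sets were not set against each other. The arrays are of whole flies, in which fewer cells of a type and less RNA per cell cannot be told apart. The p-values measure the spread between these arrays, and the number of arrays limits the precision.

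Ecdysone is the steroid hormone of insects that times moulting and metamorphosis. Its active form, 20-hydroxyecdysone, binds a heterodimer of the nuclear receptors EcR and Ultraspiracle, which then switches on early genes such as br, Eip74EF and Eip75B. These encode transcription factors that act on later genes, while ftz-f1 is expressed as a pulse of the hormone declines. In adult females the ovary is a source of ecdysteroids, and EcR signalling is needed for egg chambers to develop.

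The labels of sex were checked first with genes of known sex. The seminal fluid gene SP lay between 10.64 and 11.91 in male arrays and between 1.07 and 1.26 in female arrays. The yolk protein gene Yp1 was at 12.71 to 13.90 in females and at 2.06 to 2.42 in 12 of the 15 male arrays. In the other 3 male arrays Yp1 was higher, at 10.85 and 4.95 in Cambridge male replicates 1 and 2 and at 5.38 in Hikone male replicate 1. The mean of 6 markers of the female germline was 7.52 in Cambridge male replicate 1, 2.82 to 3.87 in the other male arrays and 8.75 to 9.68 in females. The array labelled Cambridge male replicate 1 thus stood apart, and results that rest on it are given with and without it. In Cambridge female replicate 3 the mean of 8 testis markers was 4.08, against 3.00 to 3.27 in the other female arrays. The mean of 5 accessory gland markers there was 4.22, against 2.72 to 3.70 in the other female arrays. That array was kept, and it is among those left out 1 at a time. Replicates of a group correlated at 0.962 or above over all probe sets, with the lowest value in Cambridge females.

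Of the 8 probe sets tested, 4 were called lower in males than in females and 0 higher in males. These were ftz-f1, usp, Hr39 and 1 of the 2 probe sets of EcR. Over the whole array 46.8% of probe sets were called for sex, 28.8% as higher in females and 18.1% as higher in males, so the members' count of 4 of 8 is near the share of all probe sets. At an unadjusted p below 0.05, limma gave all 8 as lower in males and 0 as higher, and 57.4% of all probe sets as lower in males. That count depends on the scaling. With each array centred on the median of probe sets with no group mean of 5 or more, 4 of the 8 were called. Not called then were br probe sets 141430_at, 143087_at and 144385_at and EcR probe set 146672_at, at -0.14, 0.02, -0.04 and -0.1. A difference of over 2-fold in favour of females was called for 3 of the 8 (ftz-f1, usp and Hr39), against 17.1% of all probe sets. The median size of the difference between the sexes was 0.46 over the members and 0.42 over all probe sets (log2).

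**Figure D1:**
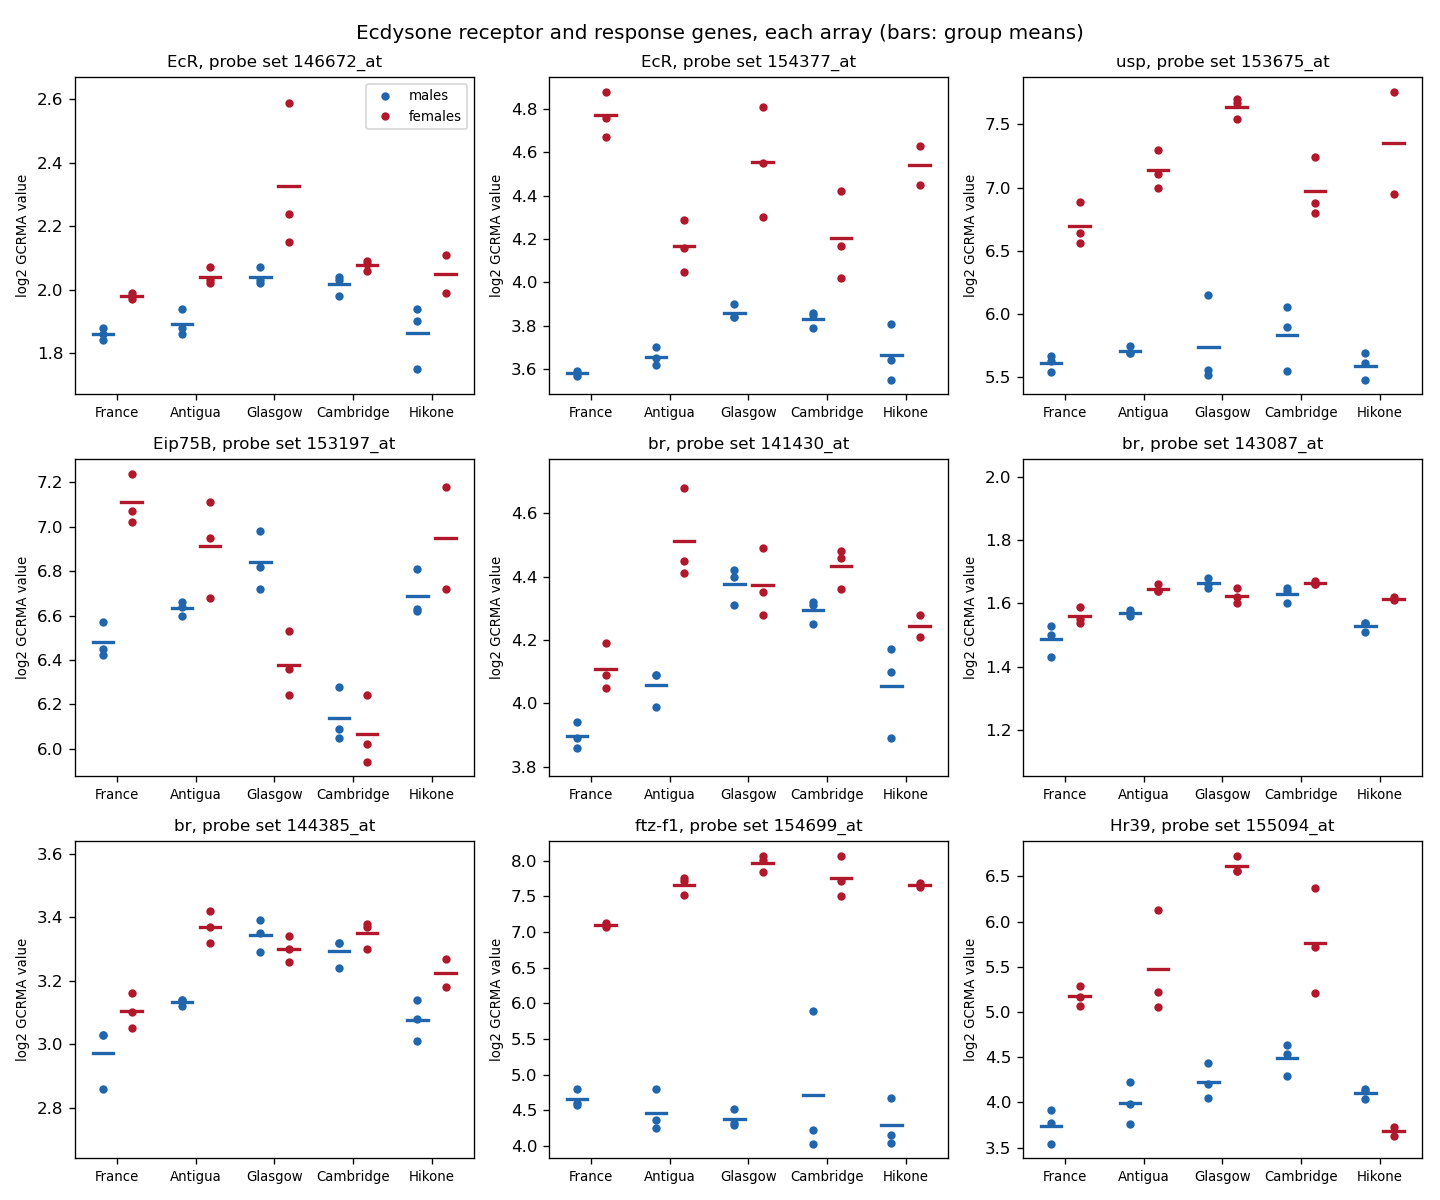
Each point is the log2 expression value of 1 array, with males left of females within each strain and horizontal bars at the group means. Each panel is 1 probe set with its own axis. For ftz-f1, usp and EcR probe set 154377_at every male array lies below every female array, whereas for Hr39 the Hikone females lie at 3.63 and 3.73, below the Hikone males.

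EcR, the hormone-binding subunit of the receptor, lies on chromosome arm 2R and is read by probe sets 154377_at and 146672_at. On 154377_at the level was 3.57, 3.59 and 3.58 in France males, against 4.88, 4.67 and 4.76 in France females. In Cambridge it was 3.86, 3.85 and 3.79 in males, against 4.17, 4.42 and 4.02 in females. All 15 male arrays, at 3.55 to 3.90, lay below all 14 female arrays, at 4.02 to 4.88. The same held for usp and ftz-f1, so that 3 of 8 members had no overlap between the sexes, against 19.1% of all probe sets.

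Averaged over strains, EcR probe set 154377_at was 3.72 in males and 4.45 in females, a difference of -0.73 (95% CI -0.83 to -0.63), or 1.66-fold higher in females (adjusted p = 1.7e-08). Every group mean of this probe set was below 5, so the fold is one between low levels. The difference was present in each strain and varied in size. It was -1.19 ± 0.10 in France, -0.87 ± 0.12 in Hikone, -0.69 ± 0.10 in Glasgow, -0.51 ± 0.10 in Antigua and -0.37 ± 0.10 in Cambridge (log2, ± SE of the fit). Without Cambridge male replicate 1 the Cambridge difference was -0.38 ± 0.12. The test of sex by strain did not call this variation (F = 9.29, adjusted p = 1). Male group means spanned 3.58 to 3.86 and female group means 4.17 to 4.77. Among the female groups France was at the top with 4.77 ± 0.11 and Antigua at the bottom with 4.17 ± 0.12 (SD, n = 3 each), and the strains were not called different in females (F = 11.8, adjusted p = 0.528).

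Probe set 146672_at of EcR was dim in every group, between 1.75 and 2.07 in male arrays and between 1.97 and 2.59 in female arrays. The highest value was that of Glasgow female replicate 1, at 2.59, with the other Glasgow females at 2.24 and 2.15. The difference of -0.16 between the sexes was not called (adjusted p = 1). The 2 probe sets of EcR therefore gave unlike results for sex, and the sources used here do not say which EcR transcripts each one reads.

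Ultraspiracle, encoded by usp on the X chromosome, is the RXR relative that pairs with EcR. In Glasgow usp was at 6.15, 5.56 and 5.52 in males, against 7.54, 7.67 and 7.70 in females. In France it was at 5.67, 5.63 and 5.54 in males, against 6.56, 6.64 and 6.89 in females. Male arrays lay at 5.48 to 6.15 and female arrays at 6.56 to 7.76, again with no overlap. Over the strains usp averaged 5.70 in males and 7.16 in females, a difference of -1.46 (95% CI -1.63 to -1.29), or 2.75-fold higher in females (adjusted p = 8.03e-10).

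The male groups were alike in usp, with means of 5.59 to 5.84, while the female means ran over 7.64 ± 0.09 in Glasgow, 7.36 ± 0.57 in Hikone, 7.14 ± 0.15 in Antigua, 6.97 ± 0.23 in Cambridge and 6.70 ± 0.17 in France (SD, n = 3, with n = 2 in Hikone). The 2 Hikone female arrays, at 6.95 and 7.76, lay nearly as far apart as the highest and lowest of the female means. No difference among strains was called for usp in females (F = 7.81, adjusted p = 1) or in males (F = 0.615, adjusted p = 1). The difference between the sexes was -1.89 in Glasgow, -1.76 in Hikone, -1.43 in Antigua, -1.14 in Cambridge and -1.08 in France, with an SE of 0.18 in each and 0.20 in Hikone. Without Cambridge male replicate 1 the Cambridge difference was -1.25 ± 0.20, and the Cambridge male mean was 5.72 in place of 5.84.

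The nuclear receptor gene ftz-f1, on chromosome arm 3L, gave the largest difference between the sexes among the 8 probe sets tested. FTZ-F1 acts in the prepupa as a competence factor for the next ecdysone pulse, and in the early embryo a maternally supplied form works with the segmentation protein Fushi tarazu. In Glasgow its level was 4.52, 4.33 and 4.30 in males, against 8.01, 8.07 and 7.84 in females. In France, where the gap was smallest, it was 4.80, 4.58 and 4.61 in males, against 7.07, 7.13 and 7.10 in females. Over the strains ftz-f1 averaged 4.50 in males and 7.63 in females, a difference of -3.12 (95% CI -3.41 to -2.84), or 8.72-fold higher in females (adjusted p = 6.7e-12). Its male group means, 4.29 to 4.71, were all below 5, so the fold rests on low male levels.

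The highest male value of ftz-f1, 5.89, was that of Cambridge male replicate 1, the array with yolk and female germline transcripts, while the other Cambridge males were at 4.22 and 4.03. Without that array the difference between the sexes was -3.24 (adjusted p = 4.61e-17). Within strains it was -3.59 in Glasgow, -3.36 in Hikone, -3.19 in Antigua, -3.05 in Cambridge and -2.44 in France, with an SE of 0.30 in each and 0.34 in Hikone. Without the array the Cambridge difference was -3.64 ± 0.17, past that of Glasgow. No difference among strains was called for ftz-f1 with or without it (adjusted p = 1 in each test). The F without and with the array was 2.17 and 0.912 averaged over sex, 8.63 and 2.31 in females, and 9.36 and 2.06 for sex by strain. The female germline markers moved with the sexes as well, with 5 of 6 called higher in females, as did 7 of 7 markers of follicle cells, the somatic cells around the egg chamber. Their part in the differences of EcR, usp, ftz-f1 and Hr39 was not tested.

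Hr39, on chromosome arm 2L, encodes a nuclear receptor closely related to FTZ-F1, and in Drosophila females it is needed to form the spermathecae and other glands of the reproductive tract. It was the only member called among strains in females. In females its level was 6.73, 6.56 and 6.56 in Glasgow, 6.37, 5.72 and 5.21 in Cambridge, 5.22, 5.06 and 6.13 in Antigua, 5.29, 5.17 and 5.07 in France, and 3.73 and 3.63 in Hikone. In males all values lay between 3.54 and 4.64. Both Hikone female arrays thus lay within the range of the males, and all 12 other female arrays, at 5.06 or above, lay above every male array.

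**Figure D2:**
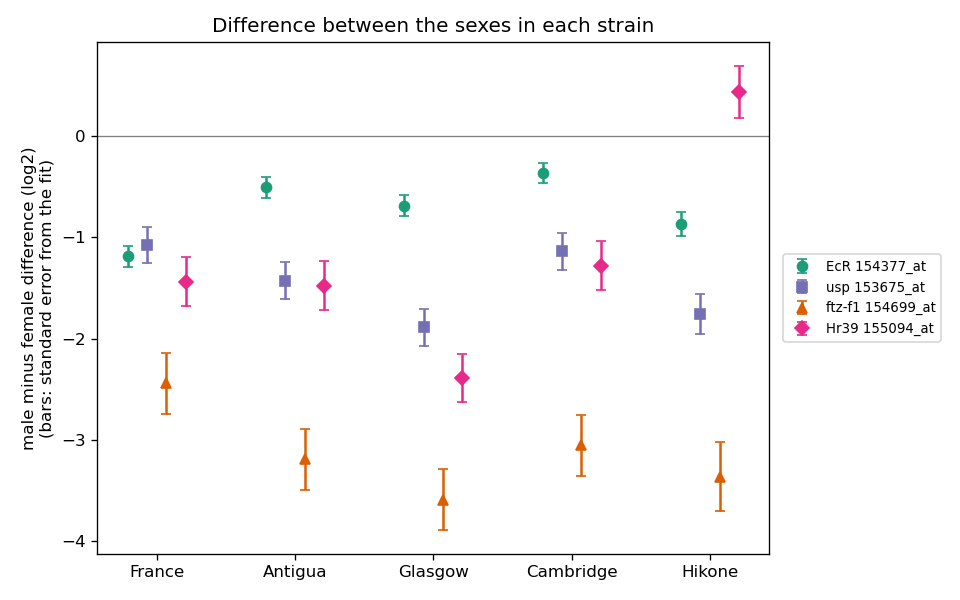
The y axis gives the difference of males minus females in log2 units for the 4 probe sets called for sex, in each of the 5 strains, with bars of 1 SE from the fit. All values of EcR, usp and ftz-f1 are below 0, and Hr39 is at 0.43 in Hikone and between -2.39 and -1.28 in the other strains.

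Averaged over strains Hr39 was 4.11 in males and 5.34 in females, a difference of -1.23 (95% CI -1.46 to -1.01), or 2.35-fold higher in females (adjusted p = 3.6e-06). That mean joins unlike strains, and the male group means, 3.74 to 4.49, were all below 5, so the fold rests on low male levels. The difference was -2.39 in Glasgow, -1.48 in Antigua, -1.44 in France and -1.28 in Cambridge, with an SE of 0.24 in each, and 0.43 ± 0.26 in Hikone. Without Cambridge male replicate 1 the Cambridge difference was -1.35 ± 0.27, with a Cambridge male mean of 4.42. The test of sex by strain gave F = 16.2 and an adjusted p of 0.0549, so this change of the difference with strain did not pass the threshold of 0.01. With limma and Bonferroni adjustment 0 of the 8 members passed it, against 2.56% of all probe sets, while 2 passed at a Benjamini-Hochberg adjusted p below 0.01, against 19.6%, and 6 had an unadjusted p below 0.05, against 55.4%.

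Among female groups the strains differed in Hr39 (F = 32.3, adjusted p = 0.000185), and it was the only 1 of 8 members called there, against 6.53% of all probe sets. Of 80 pairs of strains over the 8 members in females 1 was called, against 1.29% over all probe sets. In that pair Hr39 averaged 6.62 ± 0.10 in Glasgow females (SD, n = 3) and 3.68 ± 0.07 in Hikone females (SD, n = 2). The difference was 2.94 (95% CI 2.39 to 3.49), a 7.66-fold higher level in Glasgow (adjusted p = 5.4e-05 over all probe sets and the 10 pairs). Without Hikone female replicate 2, the F among females fell to 20.6 and was not called (adjusted p = 0.0118). When females were fitted on their own, neither the F of Hr39 (F = 20.1, adjusted p = 1) nor the pair of Glasgow and Hikone was called.

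The other strains were also above Hikone in Hr39, without passing the threshold. Cambridge females exceeded Hikone females by 2.09 (95% CI 1.54 to 2.64, adjusted p = 0.0168), Antigua by 1.79 (95% CI 1.24 to 2.34, adjusted p = 0.17) and France by 1.50 (95% CI 0.95 to 2.05, adjusted p = 1). Neighbours in the order of Hr39 among the other 4 strains were not called different. Glasgow minus Cambridge was 0.85 (95% CI 0.36 to 1.34), Antigua minus Cambridge was -0.30 (95% CI -0.79 to 0.20) and France minus Antigua was -0.29 (95% CI -0.79 to 0.20), with an adjusted p of 1 for each. The female germline markers averaged 9.06 and 9.32 in the 2 Hikone females, inside the range of 8.75 to 9.68 over the other females. The follicle cell markers averaged 10.78 and 10.99 in the Hikone females, against 8.04 to 10.83 in the other females. Between the groups of the called pair, the germline markers averaged 9.60 in Glasgow and 9.19 in Hikone females, and the follicle cell markers 8.83 in Glasgow and 10.88 in Hikone females. Their part in the difference of Hr39 was not tested.

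In males Hr39 ran over 4.49 ± 0.18 in Cambridge, 4.23 ± 0.19 in Glasgow, 4.11 ± 0.06 in Hikone, 3.99 ± 0.24 in Antigua and 3.74 ± 0.19 in France (SD, n = 3 each). The strains were not called different in males (F = 2.76, adjusted p = 1). No member was called there, against 9.67% of all probe sets, and of the 80 pairs of strains in males 0 were called, against 1.84%. At a Benjamini-Hochberg adjusted p below 0.01, which is less strict, limma called 3 of 8 members in males, against 62% of all probe sets, and 12 of 80 pairs, against 24.4%. At an unadjusted p below 0.05 it gave 4 members, against 76.3%, and 30 pairs, against 45.9%. The median F among male groups was 2.83 over the members and 7.11 over all probe sets. The median F among female groups was 8.55 over the members and 4.70 over all probe sets. The members counted here are probe sets and not separate genes. The 3 called in males with Benjamini-Hochberg adjustment were the probe sets of br. Their group means correlated at 0.95 to 0.99 after the mean of each sex was subtracted.

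Averaged over sex, the strains differed in 2 of the 8 members, Hr39 (F = 22.6, adjusted p = 0.00389) and probe set 144385_at of br (F = 24.0, adjusted p = 0.00231), against 15.8% of all probe sets. The median F was 10.31 over the members and 9.25 over all probe sets. The call of Hr39 was lost on leaving out any 1 of 12 of the 29 arrays, with an adjusted p of up to 0.0498. These were all 5 arrays of Hikone, all 3 of Glasgow females, Glasgow male replicates 1 and 2, Cambridge male replicate 2 and France female replicate 2. The call of br was lost without France female replicate 1 (adjusted p = 0.0144) or replicate 3 (adjusted p = 0.0169), and replicate 3 is the array with the divergent age label. Without Cambridge male replicate 1 the adjusted p of Hr39 was 0.00955 averaged over sex and 0.000376 in females.

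The early gene br, on the X chromosome, encodes the Broad family of zinc finger transcription factors, which specify pupal development. On probe set 144385_at the males were at 3.03, 2.86 and 3.03 in France, 3.14, 3.12 and 3.14 in Antigua, 3.29, 3.39 and 3.35 in Glasgow, 3.32, 3.32 and 3.24 in Cambridge, and 3.14, 3.08 and 3.01 in Hikone. The females were at 3.10, 3.16 and 3.05 in France, 3.37, 3.32 and 3.42 in Antigua, 3.26, 3.30 and 3.34 in Glasgow, 3.38, 3.37 and 3.30 in Cambridge, and 3.27 and 3.18 in Hikone. France was thus the lowest group of each sex, and the whole span of the probe set was 2.86 to 3.42.

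The other br probe sets followed a similar order of groups. Probe set 141430_at lay at 3.86 to 4.42 in males and 4.05 to 4.68 in females, and the strains were not called different (F = 18.4, adjusted p = 0.0198). Probe set 143087_at lay at 1.43 to 1.68 in males and 1.54 to 1.67 in females (F = 12.3, adjusted p = 0.406). After the mean of each sex was subtracted, the 10 group means of the 3 br probe sets correlated at 0.95 to 0.99, as a description over groups that share arrays. Males were lower by -0.20, -0.05 and -0.11 on 141430_at, 143087_at and 144385_at, none of which was called for sex (adjusted p = 0.095, 1 and 1).

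The level of dim probe sets moved in a similar way over the groups. Among the 5870 probe sets with no group mean of 5 or more, the median was 2.71 in France males, 2.77 in Hikone males, 2.80 in Antigua males, 2.90 in Cambridge males and 2.94 in Glasgow males. In females it was 2.80 in France, 2.86 in Hikone, 2.90 in Glasgow, 2.92 in Antigua and 2.96 in Cambridge. When every array was centred on this median, none of the 3 br probe sets was called among strains (adjusted p = 1 for each). The male means of EcR probe set 154377_at also lay in nearly the order of the dim probe sets. They were 3.58 in France, 3.66 in Antigua, 3.67 in Hikone, 3.83 in Cambridge and 3.86 in Glasgow. Its values correlated with the dim median at 0.95 over 15 male arrays and at -0.80 over 14 female arrays. For EcR probe set 146672_at these were 0.95 and 0.11, and for the br probe sets 0.94 to 0.99 and 0.79 to 0.91. Whether the male level of 154377_at is background was not tested. With the same centring 154377_at was still called lower in males, by -0.67 (adjusted p = 3.05e-07). Hr39 with this centring was still called in females (F = 29.2, adjusted p = 0.000541) and was not called averaged over sex (F = 17.4, adjusted p = 0.0349).

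**Figure D3:**
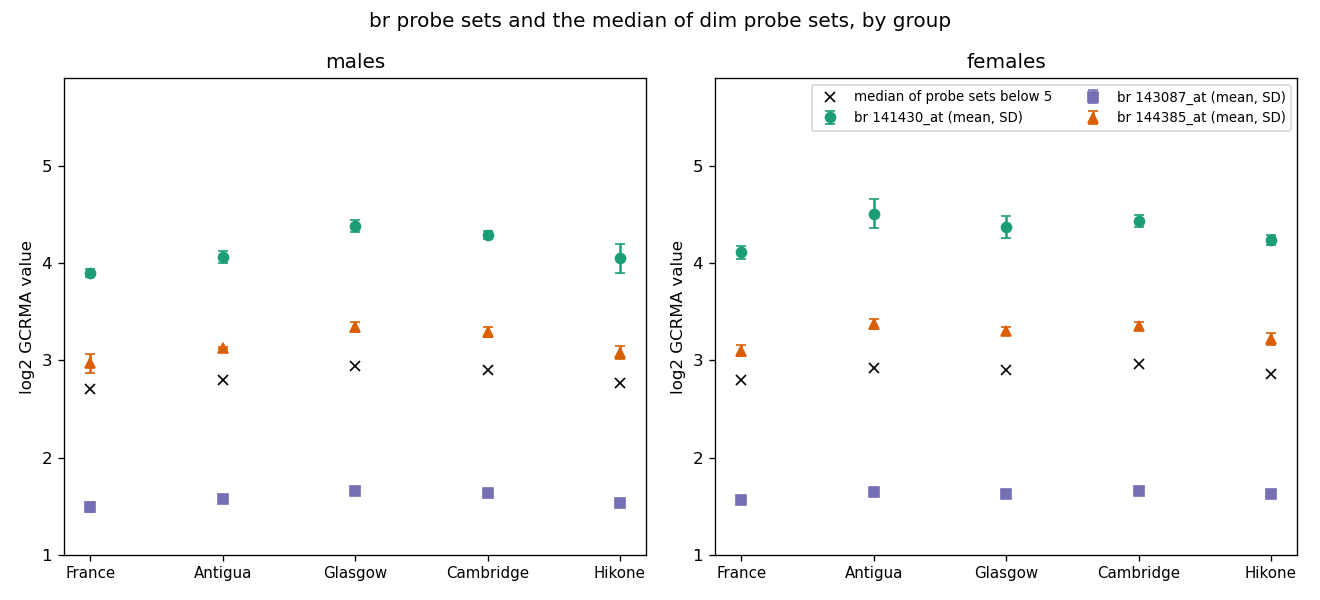
The y axis gives log2 expression for the 3 br probe sets as group means with SD bars, and crosses give the median of the 5870 probe sets whose group means all lie below 5, in males (left) and females (right). The crosses are lowest in France, at 2.71 in males and 2.80 in females, as are the br probe sets in each sex.

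The median of all probe sets also differed between the sexes, with a mean of 4.50 over male groups and 4.37 over female groups, a shift of 0.12 (log2). Relative to that median all 8 members were called lower in males, so the small differences of br and of EcR probe set 146672_at depend on the scaling. They became -0.32, -0.17 and -0.23 on br probe sets 141430_at, 143087_at and 144385_at (adjusted p = 1.9e-05, 3.62e-06 and 1.14e-05), and -0.28 on EcR probe set 146672_at (adjusted p = 0.000938). The 4 members called on the deposited values kept their direction, at -3.25 for ftz-f1, -1.58 for usp, -1.35 for Hr39 and -0.85 for EcR probe set 154377_at.

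Eip75B, on chromosome arm 3L, encodes a nuclear receptor that binds haem and acts as a repressor within the ecdysone response. Its difference between males and females ran in opposite directions in different strains. In France Eip75B was at 6.57, 6.42 and 6.45 in males, against 7.24, 7.02 and 7.07 in females, with no overlap. In Glasgow it was at 6.72, 6.82 and 6.98 in males, against 6.53, 6.24 and 6.36 in females, so that the males were above the females. In Antigua it was at 6.66, 6.64 and 6.60 in males, against 7.11, 6.95 and 6.68 in females.

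In Cambridge Eip75B was at 6.28, 6.05 and 6.09 in males, against 6.24, 6.02 and 5.94 in females, and in Hikone at 6.63, 6.62 and 6.81 in males, against 7.18 and 6.72 in females. Cambridge was the lowest strain in both sexes, with means of 6.14 ± 0.12 in males and 6.07 ± 0.16 in females (SD, n = 3 each). The order of female means was 7.11 in France, 6.95 in Hikone, 6.91 in Antigua, 6.38 in Glasgow and 6.07 in Cambridge, and that of male means 6.84 in Glasgow, 6.69 in Hikone, 6.63 in Antigua, 6.48 in France and 6.14 in Cambridge. Averaged over strains Eip75B was 6.56 in males and 6.68 in females. The probe set reached the data through a list chosen for variation among females. Neither its spread over female groups nor the sex differences that include those groups support anything further.

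The other genes of the pathway were taken from 6 lists, chosen with earlier results of these data known. Their counts of genes called stand against 18.1% of all probe sets called higher in males, 28.8% higher in females and 15.8% among strains. Ecdysteroid synthesis had 9 of 11 listed genes measured, of which 1 was called higher in males, 2 were called higher in females and 6 were not called. Npc1a, a transporter of the sterols from which the hormone is made, was at 7.59 in males and 6.41 in females, or 2.26-fold higher in males (adjusted p = 5.32e-08). The zinc finger gene mld, a regulator of hormone synthesis, fell by 1.22 in males relative to females (adjusted p = 3.16e-09), and ecd fell by 1.02 (adjusted p = 1.62e-07). The gene of the 20-hydroxylase that makes the active hormone, shd, was dim, at 2.90 in males and 2.99 in females (adjusted p = 0.947 for sex). Averaged over sex, the strains were called different in shd (F = 21.8, adjusted p = 0.00518) and in mld (F = 23.5, adjusted p = 0.00281). After the centring on dim probe sets neither was called.

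Of 4 genes of hormone uptake and removal, all measured, 1 was called in each direction. Oatp74D, which encodes the importer of ecdysone into cells, was 1.56-fold higher in males, at 6.87 in males and 6.23 in females (adjusted p = 0.000181). Cyp18a1, which encodes the enzyme that inactivates the hormone, was at 5.66 in males and 6.53 in females, 1.83-fold higher in females (adjusted p = 0.00417). Oatp74D also differed among strains averaged over sex (adjusted p = 0.00213), with Glasgow females lowest at 5.50 ± 0.26 (SD, n = 3).

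Of 16 listed coregulators of the receptor 14 were measured, and 8 were called higher in females, 1 was called higher in males and 5 were not called. The immunophilin gene Fkbp39 was at 7.01 in males and 10.63 in females, 12.3-fold higher in females (adjusted p = 1.59e-13). The EcR coactivator rig was at 4.74 in males and 7.92 in females, 9.07-fold higher in females (adjusted p = 1.69e-12). The nuclear receptor cofactor bon and E(bx), a subunit of the chromatin remodelling factor NURF, were each 7.30-fold higher in females (adjusted p = 8.33e-12 and 9.46e-13). The male averages of rig and bon, 4.74 and 4.99, were below 5, so their folds rest on low male levels. The list's median difference was -0.77, males minus females.

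TP53INP, also known as DOR and described in Drosophila as a coactivator of EcR, ran the other way. It was at 9.60 in males and 7.81 in females, 3.47-fold higher in males (adjusted p = 6.74e-10). Male group means lay close together at 9.47 to 9.79, while the female means were 8.70 ± 0.14 in France and 6.30 ± 0.36 in Glasgow (SD, n = 3 each) with the other strains between them. The difference among female groups was called (adjusted p = 7.25e-05). The bridging factor gene mbf1, whose product links FTZ-F1 to the general transcription machinery, was highest in Glasgow females at 10.28 ± 0.02, with the other female groups at 9.29 to 9.78 (adjusted p = 0.000283 among females). Of the female groups, Glasgow was also lowest in the follicle cell markers, at 8.83, and highest in the germline markers, at 9.60. The part of these in TP53INP, mbf1 and Oatp74D was not tested.

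All 16 other nuclear receptor genes were measured, and 3 were called higher in females, 0 higher in males and 13 not called. The called genes were the orphan receptor gene Hr78 (1.79-fold, adjusted p = 5.5e-08), Hr96 of the xenobiotic and lipid response (1.47-fold, adjusted p = 0.00184) and Hnf4 of lipid metabolism (1.28-fold, adjusted p = 0.000104). Hr51 and eg were called among strains (adjusted p = 0.00835 and 0.00694), with differences between groups at levels of 3.90 or below.

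**Figure D4:**
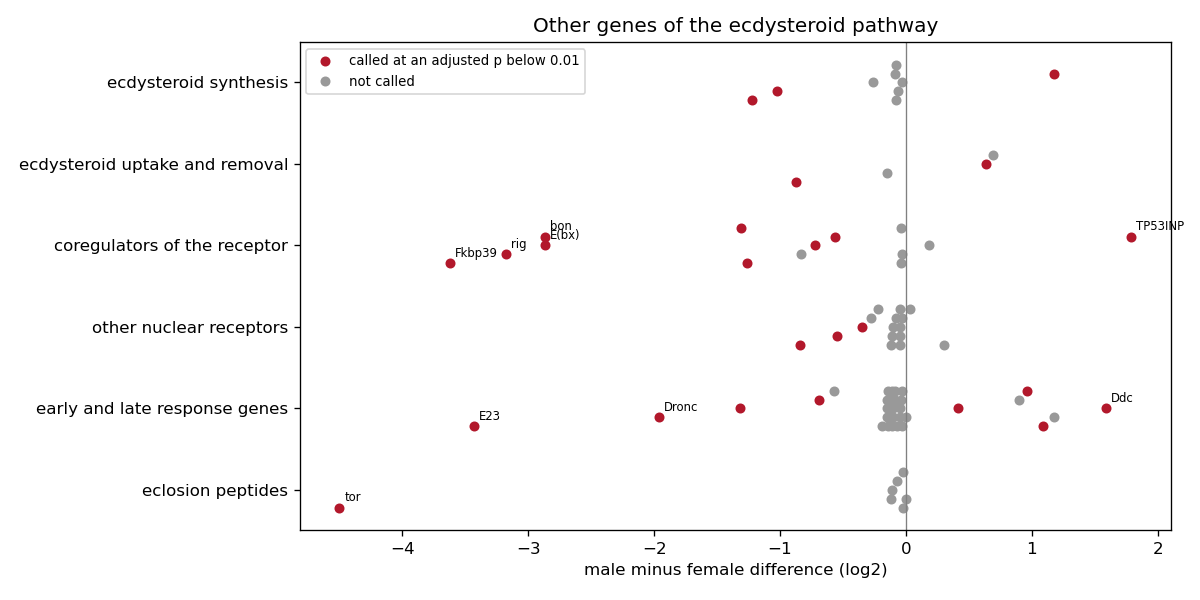
Each point is 1 measured gene of the 6 pathway lists, placed by its difference of males minus females in log2 units, with called genes in red and others in grey. Genes beyond 1.5 in either direction are named. Most early and late response genes lie near 0, while Fkbp39 at -3.62, E23 at -3.43 and tor at -4.50 lie far to the left.

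Of 41 listed early and late response genes 33 were measured, and 4 were called higher in males, 4 higher in females and 25 not called. E23, an ecdysone-induced ABC transporter gene, was higher in females, at 1.93 in males and 5.36 in females (adjusted p = 1.29e-17). Its male group means, 1.82 to 2.06, lay below the male medians of the dim probe sets, so no fold is given. Dronc, the initiator caspase gene, was 3.90-fold higher in females (adjusted p = 7.74e-12), and Cth, first described as Eip55E, was 2.50-fold higher in females (adjusted p = 1.57e-10). Ddc, whose product dopa decarboxylase serves the hardening of new cuticle, was at 8.25 in males and 6.66 in females, 3.01-fold higher in males (adjusted p = 3.16e-10).

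Ddc and ImpL2, which encodes a secreted protein that binds insulin-like peptides, were lowest in the same female group. ImpL2 was at 5.53 ± 0.17 in Glasgow females (SD, n = 3) and at 7.05 to 7.56 in the other female groups (adjusted p = 1.08e-05 among females). Ddc was at 5.37 ± 0.34 in Glasgow females (SD, n = 3) and at 6.76 to 7.24 in the other female groups (adjusted p = 0.000177 among females). Glasgow females were also lowest in the follicle cell markers, at 8.83 against 8.98 to 10.88 in the other female groups, and highest in the germline markers, at 9.60 against 8.80 to 9.34, and the part of these in the 2 genes was not tested. In males ImpL2 lay at 7.75 to 8.14 and Ddc at 8.10 to 8.47 over the strains, and neither was called there (adjusted p = 1 for each). The late genes Eig71Ea, Eig71Ed and Eig71Ef were called among strains (adjusted p = 0.00426, 0.00089 and 0.000489) at levels of 3.59 or below.

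Of 12 pathway genes called among strains, 7 had no group mean of 5 or more. After the centring on dim probe sets 2 of these 7 were still called, Eig71Ed and Eig71Ef, as were 4 of the other 5, with mld not called (adjusted p = 0.0512). Of 9 genes of eclosion peptides and their receptors 7 were measured and 1 was called, tor, which was at 3.49 in males and 7.99 in females (22.6-fold higher in females, adjusted p = 2.58e-16). The male average of tor was below 5, so its fold rests on a low male level. The Torso receptor is known both as the receptor of prothoracicotropic hormone and as a maternal receptor of the embryo's ends.

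The genes whose levels were most like each member over the 10 group means, after the mean of each sex was subtracted, were looked up among 7282 or 7283 others, as a description over groups that share arrays. For Hr39 they were CG2841 (r = 0.953), wus (r = 0.949) and CG17746 (r = 0.945). Like Hr39, wus was low in Hikone females, at 4.06, and at 6.59 to 7.84 in the other female groups, with male means of 3.73 to 4.78. For usp they were ena (r = 0.948), CG4119 (r = 0.937) and Bap60 (r = 0.934), and for ftz-f1 Ptpmeg2 (r = 0.934), CG6340 (r = 0.922) and Dph5 (r = 0.908).

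For EcR probe set 154377_at the most alike were kipf (r = 0.969), Srrm1 (r = 0.932) and temp (r = 0.915), and for 146672_at cort (r = 0.987), mi (r = 0.984) and BtbVII (r = 0.982). The genes most like br probe set 141430_at were Pabp2 (r = 0.989), CG9839 (r = 0.981) and knrl (r = 0.98). For 143087_at they were CG3251 (r = 0.993), pAbp (r = 0.972) and Coop (r = 0.971). For 144385_at they were CG3251 (r = 0.983), knrl (r = 0.982) and Pabp2 (r = 0.98). The bright probe set of pAbp was lowest in France in both sexes, at 11.05 in males and 11.30 in females. Pabp2 and CG3251 were lowest in France in both sexes, at 5.92 and 4.56 in males and at 6.09 and 4.64 in females, as were the br probe sets.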

How the data were processed

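The deposited table holds log2 values for 29 arrays, which the authors made from Affymetrix Drosophila Genome 1 intensities with GCRMA, a robust multi-array summary with a GC-based background and quantile normalization. Its version is not given in the sources used here. The values were taken as deposited, with the 44 array controls left out and no filter on low values. In limma 3.58.1 (R 4.3.3), each of the 10 groups had its own mean in a single linear model, and variances were moderated by empirical Bayes. Sex was tested as males minus females, all strains counting equally. Strains were compared by moderated F averaged over sex, within each sex and as sex by strain, and in 10 pairs per sex. Bonferroni adjustment covered all 13966 probe sets, and for pairs the pairs too, with calls below 0.01. The scripts were tested on simulated data.

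Members and gene lists were chosen with earlier results of these data known. All member probe sets are named, with up to 4 called genes per list by F among strains and up to 4 by sex, and the 3 genes most like each member. A gene with several probe sets is given by its brightest. Symbols came from the platform's annotation, and chromosome arms from a gene table of Release 6. The alternatives were other adjustments and thresholds, centrings, a repeated quantile normalization, a filter, a variance trend, array weights, a replicate block, controls kept, each sex alone and each array left out. Titles number the arrays in runs by strain, with males before females in each, and the sources used here do not say what the numbers mean. Anything that follows these numbers cannot be told apart from the groups of strain and sex.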

Additional observations from a re-analysis of the deposited data

Results flagged for a closer look

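Hr39 was picked out because its male minus female difference ran one way in all arrays of 4 strains and the other way in the fifth. The differences were -1.44 in France, -1.48 in Antigua, -2.39 in Glasgow and -1.28 in Cambridge, with every male array below every female array of the strain, and 0.43 in Hikone, with every male array above both female arrays. The test of sex by strain gave an adjusted p of 0.0549 with limma and Bonferroni adjustment, above the threshold of 0.01, and 0.0001 with Benjamini-Hochberg adjustment.

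Eip75B was picked out for the same kind of pattern. Its male minus female difference was -0.63 in France and -0.28 in Antigua, with every male array below every female array of the strain, and 0.46 in Glasgow, with every male array above every female array. This difference between strains was not tested. The probe set was named only through a list chosen for variation among females on these same arrays, so the pattern supports nothing further.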

How the results depend on the processing

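The 4 calls for sex (ftz-f1, usp, Hr39 and EcR probe set 154377_at) kept their direction in every alternative in which they were tested. The counts of members called in the main tests were 4 for sex, 2 among strains averaged over sex, 1 in females, 0 in males, 0 for sex by strain, and 1 and 0 pairs of strains in females and males. With a Benjamini-Hochberg adjusted p below 0.01 these were 8, 6, 6, 3, 2, 16 and 12. A Bonferroni threshold of 0.05 gave 3 members averaged over sex, 1 in males, 2 pairs in females and 1 pair in males. One of 0.0001 gave 0 averaged over sex and 0 in females. Median centring gave 8 for sex, and a repeated quantile normalization gave 6 for sex and 1 averaged over sex. A filter at a group mean of 5, which left 3 members (usp, ftz-f1 and Hr39), gave 3 for sex, 1 averaged over sex and 2 pairs in females. A variance trend with robust moderation gave 3 averaged over sex, 2 in males, 2 pairs in females and 1 pair in males. Array weights, whose estimation stopped before converging, gave 5 for sex, 4 averaged over sex and 4 in females. They also gave 2 in males, 1 for sex by strain, 9 pairs in females and 2 pairs in males. Fitting each sex alone gave 0 members and 0 pairs in females, with Hr39 and its pair of Glasgow and Hikone no longer called. Centring on dim probe sets, chosen after seeing the data, gave 0 averaged over sex and turned the sex difference of br probe set 143087_at to 0.02. Keeping the control probe sets left each count as it was. Where nothing above names a reason, the cause was not tested.

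With 1 array left out, counts ran from 4 to 4 for sex, 1 to 3 averaged over sex, 0 to 1 in females, 0 to 0 in males, 0 to 1 for sex by strain, 1 to 2 pairs in females and 0 to 0 pairs in males. The count of 0 in females came without Hikone female replicate 2, and that of 1 for sex by strain, Hr39, without Antigua female replicate 3 or Cambridge female replicate 1 or 3. With the replicate number as a block, 1 member was called averaged over sex, with Hr39 not called (adjusted p = 0.0104), and no other count changed. The sources used here do not say whether same-numbered arrays of different groups share more than the number. Their deviations from the group means correlated at -0.49 to 0.43 over 126 pairs, with a median of -0.002. Of the 29 arrays, 8 correlated best with arrays of their own number. Whether the number marks a batch was not tested.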
